A study of Mus musculus with 6 samples.

Results

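Glucose enters a cell through facilitative transporters and is committed to glycolysis by the hexokinases and the phosphofructokinases. The genes described were 10 of the 27998 genes in the count tables, chosen by symbol: the transporters Slc2a1 (GLUT1), Slc2a3 (GLUT3) and Slc2a4 (GLUT4), the hexokinases Hk1 and Hk2, the phosphofructokinases Pfkm, Pfkl and Pfkp, the regulator Pfkfb2 and the fructose bisphosphatase Fbp2. GLUT1 is the transporter of fetal and many proliferating cells, whereas GLUT4 is stored in vesicles and reaches the surface of muscle and fat cells on insulin. The fetal heart relies largely on glucose and lactate, and after birth the heart turns to fatty acids. The data are from cardiomyocytes (CMs) of the left ventricle of C57BL/6J mice at embryonic day 16.5 (E16.5) and at postnatal days 1 (P1) and 5 (P5), without any genetic or drug treatment.

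Cells were fixed in methanol, stained for MYH1 to mark CMs and with Hoechst for DNA, and sorted into diploid (2n) and tetraploid (4n) CMs at each age, so that there were 6 groups. A 4n cell can hold 1 tetraploid nucleus or 2 diploid nuclei or be on its way through the cell cycle, and the sort does not tell these apart. Each group is 1 library of droplet-based scRNA-seq in which cells of 3 sorts, each from another litter, were pooled. The litters of the 3 ages came from different breeding pairs, and 2n and 4n CMs of an age from the same litters. For that reason ages were not tested against each other, and ploidy was tested only over the 3 ages together. The bracketed ranges are exact intervals at the 95% level that cover counting error only. Age cannot be told apart from library, litter or breeding pair.

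A CM was a cell with at least 1 unique molecular identifier (UMI, which marks 1 captured RNA molecule) of each of Tnni3, Tnnt2, Tnnc1 and Actc1, and 30733 of the 31156 cells met this. The libraries held 3654 to 7340 CMs with 13070343 to 19665830 UMIs, and the median CM had 1831 (P1-2n) to 4658 UMIs (P5-4n). Levels are given as CPM, the sum of a gene's UMIs in all CMs of a library relative to the sum of all UMIs in these CMs. Tags lie at the end of a transcript, so that levels were not divided by gene length, yet capture may differ between genes and isoform ratios are best read across libraries. The 4 CM markers took 25355 to 31849 CPM. Of 30 markers of other cardiac cell types, 27 to 30 had UMIs among the CMs, with a summed level from 258 CPM in E16.5-2n to 1809 in P1-4n. Ppbp was at 0 in 3 libraries, and Ptprc and Upk1b were at 0 in E16.5-2n. The 7 erythroid markers took 1649 (P5-4n) to 10394 CPM (E16.5-4n), with Hbb-y at 0 in both P5 libraries. The part of these cells in the results was not tested beyond the values given with them. Pairs of libraries shared 17 to 62 cell barcodes.

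Slc2a1 (chr4:119108711-119137983, plus strand) had the highest level of the transporters at E16.5 and was far lower after birth. In 2n CMs its level was 85.4 (80.7 to 90.3) CPM at E16.5, 8.94 (7.55 to 10.5) at P1 and 5.58 (4.54 to 6.79) at P5. The 4n CMs had 65.2 (60.9 to 69.7), 6.00 (4.97 to 7.19) and 3.64 (2.82 to 4.62) CPM. The E16.5 libraries were above all later ones, and in the order of the 6 levels only the neighbours P1-4n and P5-2n had a ratio whose interval included 1. At P1 the level was 9.55-fold lower than at E16.5 in 2n CMs, a log2 ratio of -3.26 (-3.51 to -3.01), and 10.9-fold lower in 4n CMs, a log2 ratio of -3.44 (-3.73 to -3.16). For P5 over P1 the log2 ratio was -0.68 (-1.06 to -0.30) in 2n and -0.72 (-1.18 to -0.28) in 4n CMs.

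Slc2a4 (chr11:69942539-69948188, minus strand), whose protein is the insulin-responsive transporter of muscle, had the opposite order of ages. In 2n CMs it was 30.1 (27.3 to 33.0) CPM at E16.5, 37.0 (34.1 to 40.1) at P1 and 49.9 (46.7 to 53.3) at P5. The 4n CMs had 24.3 (21.7 to 27.1), 32.2 (29.7 to 34.8) and 41.9 (39.0 to 45.0) CPM. Each age was above the one before it within both ploidies, while P1-4n and E16.5-2n could not be told apart by counting error. At P5 the level was 1.66-fold (2n) and 1.73-fold (4n) that at E16.5, below the 2-fold used here to call a difference.

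Slc2a3 (chr6:122727809-122801640, minus strand), a high-affinity transporter best known from neurons, was low throughout. In 2n CMs it had 77, 9 and 14 UMIs at E16.5, P1 and P5, and in 4n CMs 84, 31 and 11. As levels these were 5.27, 0.547 and 0.781 CPM in 2n, and 6.43, 1.58 and 0.598 CPM in 4n CMs. Both E16.5 libraries were above all later ones. The log2 ratio of P1 to E16.5 was -3.27 (-4.45 to -2.27) in 2n and -2.03 (-2.67 to -1.42) in 4n CMs.

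**Figure D1:**
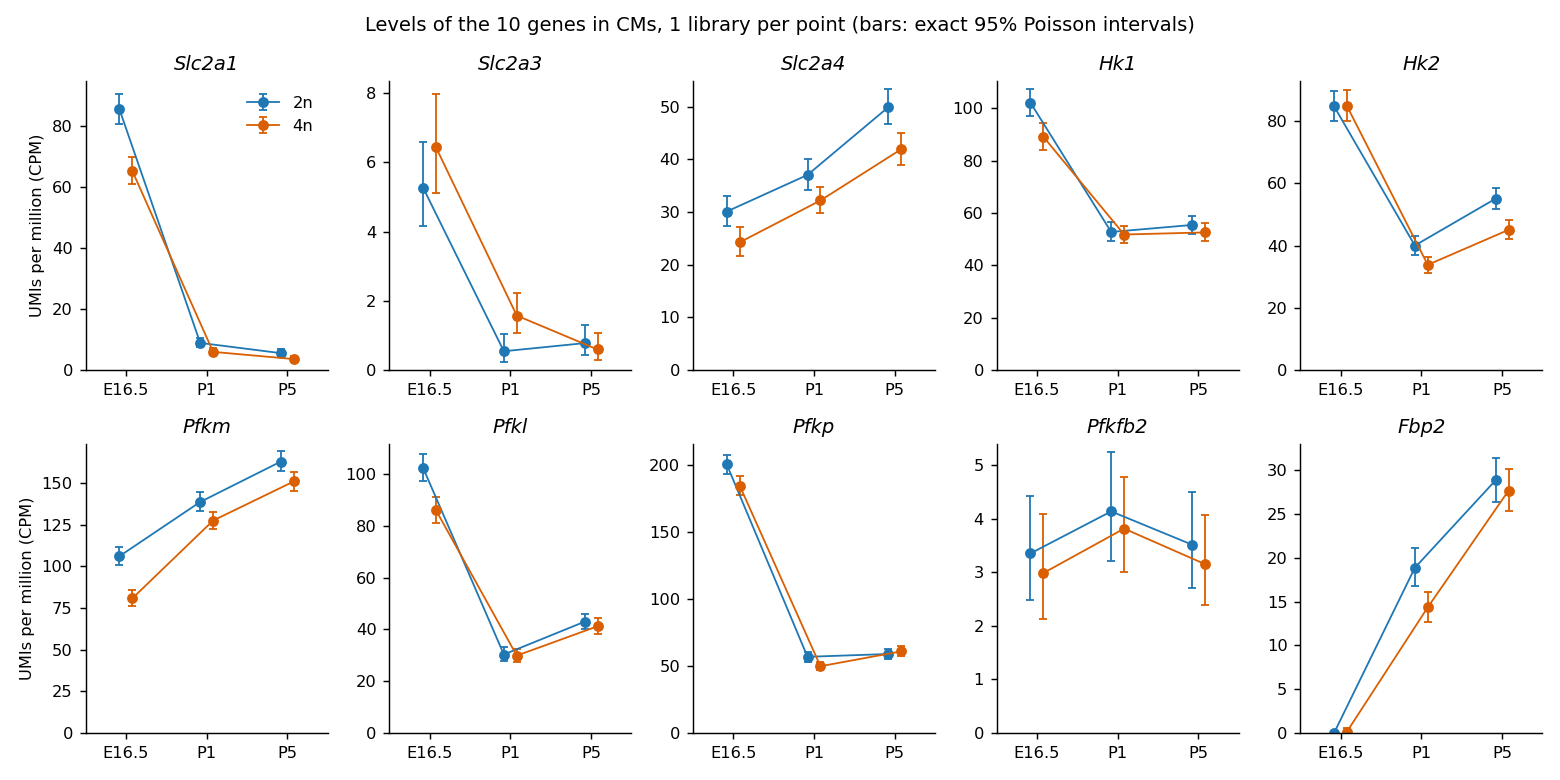
Level of each of the 10 genes in CMs (CPM, linear axes from 0) at E16.5, P1 and P5 in 2n (blue) and 4n (orange) libraries, 1 library per point, with exact 95% Poisson intervals. Slc2a1, Slc2a3, Hk1, Hk2, Pfkl and Pfkp lie highest at E16.5, whereas Slc2a4, Pfkm and Fbp2 lie highest at P5.

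The make-up of the transporter UMIs turned over between E16.5 and P1. In 2n CMs, Slc2a4 held 24.9% (22.9 to 27.0) of the UMIs of the 3 transporters at E16.5, 79.6% (76.6 to 82.4) at P1 and 88.7% (86.6 to 90.6) at P5. Among 4n CMs its share was 25.3% (22.9 to 27.8), 80.9% (78.0 to 83.6) and 90.8% (88.7 to 92.7). These shares do not depend on how the libraries are scaled. For 1 Slc2a1 UMI there were 0.35, 4.14 and 8.94 Slc2a4 UMIs at the 3 ages in 2n, and 0.37, 5.36 and 11.5 in 4n CMs. Between 4n and 2n, the log2 odds ratio of the Slc2a4 share was 0.03 (-0.22 to 0.27) at E16.5, 0.12 (-0.25 to 0.50) at P1 and 0.33 (-0.12 to 0.79) at P5, and all 3 intervals include 0. The summed level of the transporters was 121, 46.5 and 56.2 CPM at the 3 ages in 2n and 95.9, 39.8 and 46.1 in 4n CMs, so that the sum was lowest at P1.

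The hexokinases trap glucose in the cell as glucose-6-phosphate, with Hk1 as the ubiquitous and Hk2 as the insulin-regulated muscle isoform. Hk1 (chr10:62268855-62379908, minus strand) was 102 (97.0 to 107) CPM in 2n and 89.1 (84.1 to 94.4) in 4n CMs at E16.5. At later ages it lay between 51.8 (P1-4n) and 55.5 CPM (P5-2n), 4 levels whose neighbours in order could not be told apart by counting error. Hk2 (chr6:82725025-82774454, minus strand) was 84.8 (80.1 to 89.6) CPM in 2n and 84.8 (79.9 to 90.0) in 4n CMs at E16.5. At P1 it was 40.1 (37.1 to 43.3) in 2n and 33.9 (31.3 to 36.5) CPM in 4n CMs, and at P5 55.1 (51.7 to 58.7) and 45.1 (42.1 to 48.3). Thus, Hk2 was lowest at P1 and between the other ages at P5. The log2 ratio of P5 to P1 was 0.46 (0.32 to 0.60) in 2n and 0.41 (0.26 to 0.56) in 4n CMs for Hk2, and 0.07 (-0.06 to 0.20) and 0.02 (-0.11 to 0.15) for Hk1.

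The share of Hk2 in the UMIs of both hexokinases moved less than the transporter shares. In 2n CMs it was 45.4% (43.5 to 47.2) at E16.5, 43.2% (40.7 to 45.7) at P1 and 49.8% (47.6 to 52.1) at P5. Among 4n CMs it was 48.8% (46.7 to 50.8), 39.5% (37.2 to 41.9) and 46.2% (43.8 to 48.5). The lowest share was at P1 in both ploidies. The log2 odds ratio of P1 to E16.5 was -0.13 (-0.31 to 0.06) in 2n and -0.54 (-0.73 to -0.36) in 4n CMs, and that of P5 to P1 0.39 (0.19 to 0.59) and 0.39 (0.19 to 0.59). The summed level of the hexokinases was 187, 92.9 and 111 CPM at the 3 ages in 2n and 174, 85.7 and 97.7 in 4n CMs.

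**Figure D2:**
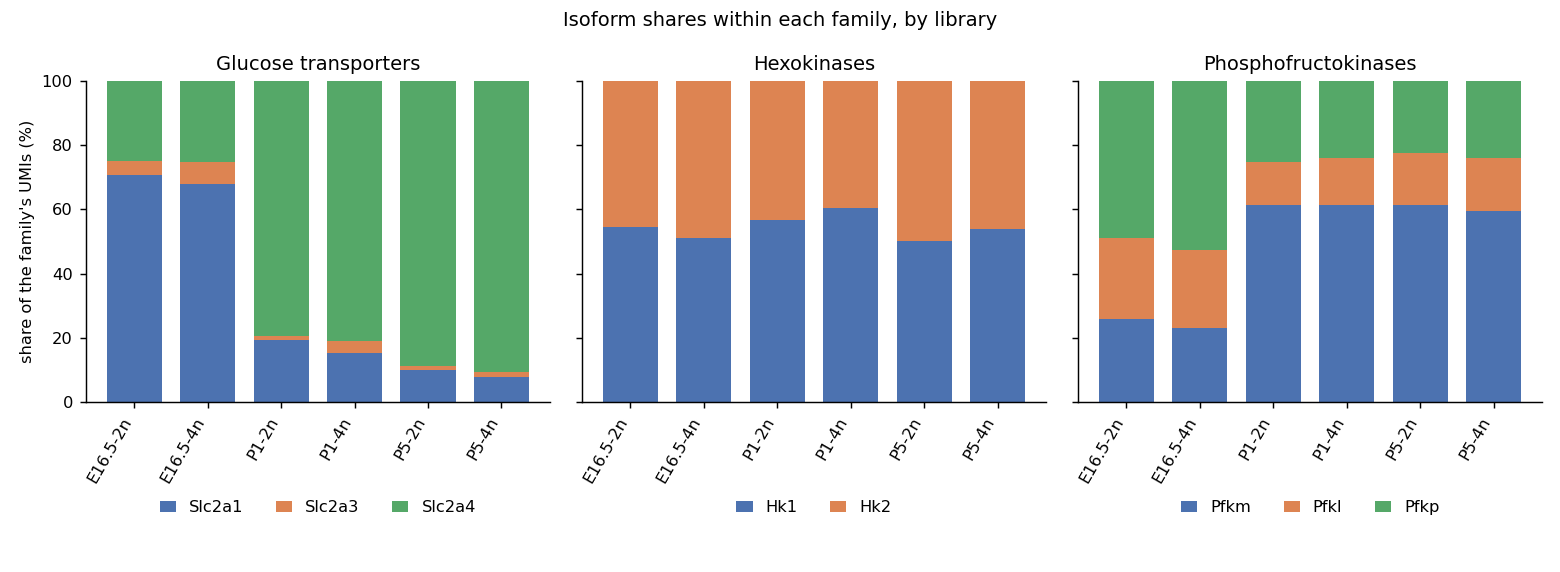
Share of each isoform (%) in the UMIs of the glucose transporters, the hexokinases and the phosphofructokinases, by library. Slc2a4 and Pfkm take the larger part in all P1 and P5 libraries, at least 79.6% and 59.6%, while the parts of Hk1 and Hk2 remain near each other.

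Phosphofructokinase 1 makes fructose-1,6-bisphosphate, the committed step of glycolysis, and its muscle (Pfkm), liver (Pfkl) and platelet (Pfkp) subunits form tetramers. Pfkp (chr13:6579768-6648777, minus strand) was the leading isoform at E16.5, with 201 (193 to 208) CPM in 2n and 185 (177 to 192) in 4n CMs. At P1 it was 56.9 (53.3 to 60.6) and 49.8 (46.8 to 53.1) CPM, and at P5 59.0 (55.5 to 62.6) and 60.9 (57.4 to 64.6). The P1 level was 3.53-fold lower than at E16.5 in 2n CMs, a log2 ratio of -1.82 (-1.93 to -1.71), and 3.71-fold lower in 4n CMs. Pfkl (chr10:77986947-78010083, minus strand) was 102 (97.2 to 108) CPM in 2n and 86.0 (81.0 to 91.2) in 4n CMs at E16.5. It was 30.3 (27.7 to 33.1) and 29.8 (27.5 to 32.4) CPM at P1, and 43.0 (40.0 to 46.1) and 41.2 (38.3 to 44.2) at P5. Like Hk2, Pfkl was lowest at P1, and P5 was 1.42-fold (2n) and 1.38-fold (4n) above P1.

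Pfkm (chr15:98092589-98132451, plus strand) went the other way. In 2n CMs its level was 106 (101 to 111) CPM at E16.5, 139 (133 to 144) at P1 and 163 (157 to 169) at P5. The 4n CMs had 80.7 (75.9 to 85.7), 127 (122 to 132) and 151 (145 to 157) CPM. All neighbours in the order of its 6 levels were apart by more than counting error. The share of Pfkm in the phosphofructokinase UMIs was 25.9% (24.8 to 27.0) in 2n and 23.0% (21.8 to 24.2) in 4n CMs at E16.5, and 59.6% to 61.5% in the 4 later libraries. The share of Pfkp was 49.1% and 52.6% at E16.5 and 22.3% to 25.2% later, and that of Pfkl 25.0% and 24.5%, and 13.4% to 16.3% later.

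The log2 odds ratio of the Pfkm share was 2.18 (2.06 to 2.31) in 2n and 2.42 (2.29 to 2.56) in 4n CMs for P1 over E16.5, and 0.01 (-0.12 to 0.14) and -0.11 (-0.24 to 0.01) for P5 over P1. Thus, the Pfkm share differed between E16.5 and P1 and not detectably between P1 and P5. For the Slc2a4 share, P5 over P1 had log2 odds ratios of 1.01 (0.62 to 1.40) and 1.22 (0.78 to 1.66), beside 3.55 (3.25 to 3.86) and 3.65 (3.32 to 3.97) for P1 over E16.5.

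Fbp2 (chr13:62836877-62858422, minus strand), the muscle fructose-1,6-bisphosphatase that works against phosphofructokinase, had 0 UMIs in 2n CMs at E16.5, with an exact upper limit of 0.252 CPM. A floor of 3 UMIs, or 0.205 CPM, stands for this 0 in ratios. In 4n CMs at E16.5 it had 2 UMIs, or 0.153 (0.0185 to 0.553) CPM. At P1 it had 310 UMIs or 18.9 (16.8 to 21.1) CPM in 2n, and 282 UMIs or 14.3 (12.7 to 16.1) CPM in 4n CMs. At P5 it had 517 UMIs or 28.8 (26.4 to 31.4) CPM in 2n, and 509 UMIs or 27.7 (25.3 to 30.2) CPM in 4n CMs. All P1 and P5 libraries were above both E16.5 libraries. With the floor of 3 UMIs in place of 0, the level in 2n CMs was 91.9-fold higher at P1 and 141-fold higher at P5 than at E16.5. These folds are set by the floor and are no exact bounds. In 4n CMs, where E16.5 rests on 2 UMIs, the log2 ratio of P1 to E16.5 was 6.55 (4.68 to 9.60) and that of P5 to E16.5 7.50 (5.64 to 10.55). For P5 over P1 it was 0.61 (0.41 to 0.82) in 2n and 0.95 (0.74 to 1.16) in 4n CMs. For 1 Pfkm UMI there were 0.14 (2n) and 0.11 (4n) Fbp2 UMIs at P1, and 0.18 and 0.18 at P5.

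Pfkfb2 (chr1:130689182-130729253, minus strand) encodes the heart isoform of the kinase and phosphatase that sets fructose-2,6-bisphosphate, an activator of phosphofructokinase. It had 39 to 75 UMIs per library, or 2.98 (E16.5-4n) to 4.14 CPM (P1-2n), and no neighbours in the order of its levels could be told apart. The log2 ratio of P5 to E16.5 in 2n CMs was 0.07 (-0.49 to 0.64), an interval that includes 0.

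In the RefSeq promoter table of GRCm38.p6, 8 of the 10 genes had a window of 250 bases before a start site. Slc2a3 and Slc2a4 had none. The windows were searched on both strands for ACGTG and also for GCGTG, the core letters bound by the hypoxia-inducible factors, for the E-box CACGTG, which contains ACGTG, and for TCAAGGTCA, bound by the estrogen-related receptors. ACGTG or GCGTG was in 12 of the 14 windows of the 8 genes, and in 38.8% of the 32536 windows searched in the whole table. The 14 windows are not all separate, since windows of Pfkm overlap and share a match of GCGTG, and windows of Pfkfb2 overlap. Their GC content ran from 36.4% (Pfkm) to 69.6% (Hk2), and the share over all windows was not matched for it. Of all windows, 16.7% held ACGTG, 28.3% held GCGTG, 6.04% held CACGTG and 0.375% held TCAAGGTCA, which was in no window of the 8 genes. A match is a matter of letters only, and binding was not measured here. The promoters of Slc2a1 and Pfkp, with lower levels after birth, and of Fbp2, with higher levels, are shown up to the annotated start of the gene, 5′ to 3′ in the direction of transcription. Capitals mark ACGTG and GCGTG on either strand, which read CACGT and CACGC where they lie on the other strand.
Slc2a1, chr4:119108495-119108710, plus strand: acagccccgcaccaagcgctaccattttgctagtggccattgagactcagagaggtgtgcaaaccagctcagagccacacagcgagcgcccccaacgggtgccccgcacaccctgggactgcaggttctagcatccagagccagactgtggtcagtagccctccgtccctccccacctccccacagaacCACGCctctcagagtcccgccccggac
Pfkp, chr13:6648778-6649021, minus strand: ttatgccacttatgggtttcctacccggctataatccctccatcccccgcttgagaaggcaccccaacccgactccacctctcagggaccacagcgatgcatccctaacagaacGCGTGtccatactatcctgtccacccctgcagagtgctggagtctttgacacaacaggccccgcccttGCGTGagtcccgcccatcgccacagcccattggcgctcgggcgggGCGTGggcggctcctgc
Fbp2, chr13:62858423-62858650, minus strand: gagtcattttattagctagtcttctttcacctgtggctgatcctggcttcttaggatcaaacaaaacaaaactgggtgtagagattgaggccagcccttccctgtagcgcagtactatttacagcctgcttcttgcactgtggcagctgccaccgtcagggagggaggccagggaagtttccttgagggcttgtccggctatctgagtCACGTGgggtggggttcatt
In these stretches the Slc2a1 promoter held 1 match of GCGTG and the Pfkp promoter 3. The full Slc2a1 window of 250 bases also held 1 ACGTG, which lies across the annotated start and is cut off here. The Fbp2 promoter held the palindrome CACGTG, which counts as 2 matches of ACGTG.

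To set the 10 genes against the transcriptome, genes with at least 100 UMIs over the 2 libraries compared were used, and a difference of 2-fold or more was called. In P1 over E16.5 of 2n CMs, 9 of the 10 genes had enough UMIs. Of these, 1 (Fbp2) was called higher and 4 (Slc2a1, Hk2, Pfkl and Pfkp) lower, where 1.98% of all 9391 genes were called higher and 12.1% lower. In 4n CMs all 10 had enough UMIs, and 1 (Fbp2) was called higher and 5 (those 4 and Slc2a3) lower, where 2.88% and 11.6% of 9958 genes were called. The comparison of P5 with E16.5 shares the E16.5 libraries with these. In it, 1 of 9 genes (Fbp2) was called higher and 3 (Slc2a1, Pfkl and Pfkp) lower in 2n CMs, beside 3.03% and 16.8% of all genes. In 4n CMs 1 higher and 3 lower of 8 were called, again Fbp2 and Slc2a1, Pfkl and Pfkp, beside 2.48% and 21.0% of all genes. In P5 over P1 none of the 10 genes was called, with 9 tested in each ploidy, where 3.02% (2n) and 2.40% (4n) of all genes were called higher and 1.98% and 5.85% lower. Less the median of all genes, Fbp2 had a log2 ratio of 1.11 in 4n CMs and passed 2-fold, as did 3.13% of all genes on that scale.

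The median log2 ratio over all such genes was -0.34 (2n) and -0.30 (4n) for P1 over E16.5, -0.09 and -0.16 for P5 over P1, and -0.45 and -0.51 for P5 over E16.5. Less this median, Hk2 had a log2 ratio of P1 to E16.5 of -0.75 in 2n CMs and was no longer past 2-fold, while in 4n CMs it was -1.03. On this scale, the log2 ratios of P5 to E16.5 in 2n and 4n CMs were -3.49 and -3.65 for Slc2a1, -1.32 and -1.09 for Pfkp and -0.80 and -0.55 for Pfkl. They were -0.43 and -0.25 for Hk1 and -0.17 and -0.40 for Hk2, so that the hexokinases lay nearer to the bulk of genes. On the same scale they were 1.18 and 1.30 for Slc2a4 and 1.07 and 1.41 for Pfkm, past 2-fold. Of all genes, 7.09% (2n) and 7.15% (4n) were 2-fold or more higher on this scale. Pfkl, called lower at P5 before the median was taken off, was not past 2-fold here.

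**Figure D3:**
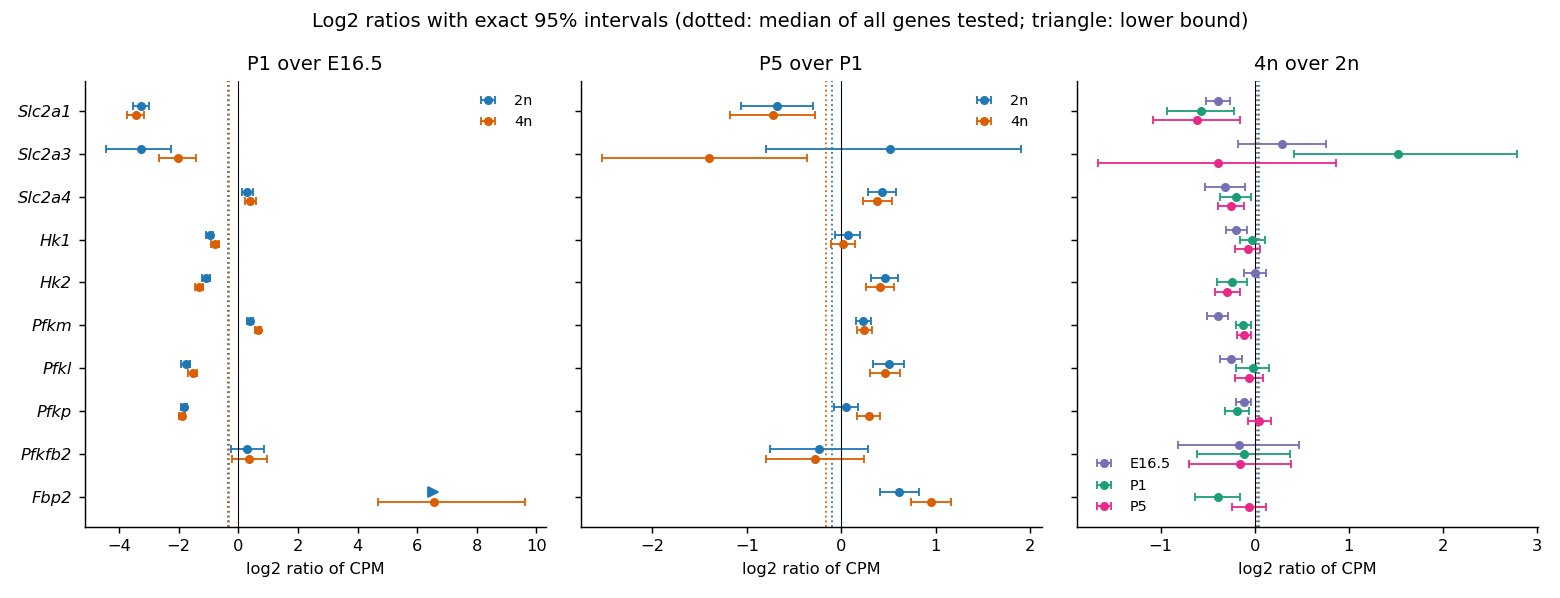
Log2 ratio of CPM of each gene for P1 over E16.5, P5 over P1 and 4n over 2n, with exact 95% intervals, 1 library per group. Dotted lines are the medians over all genes tested, between -0.34 and 0.05. The triangle, drawn as a lower bound, is the ratio of Fbp2 in 2n CMs set by the floor, since the E16.5 library had 0 UMIs.

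Within an age, 4n were compared with 2n CMs. Slc2a1 was lower in 4n CMs at each age, with log2 ratios of -0.39 (-0.52 to -0.26) at E16.5, -0.58 (-0.94 to -0.22) at P1 and -0.62 (-1.08 to -0.15) at P5. The P1 and P5 values rest on 67 to 147 UMIs per library. With each CM thinned to 1000 UMIs the ratio at P5 was 0.12. In CMs without any UMI of the markers of other cell types the ratio was -0.16 at P1 and, past 2-fold, -1.15 at P5. Slc2a4 was also lower in 4n CMs, with log2 ratios of -0.31 (-0.52 to -0.10), -0.20 (-0.37 to -0.04) and -0.25 (-0.39 to -0.11). When thinned to 1000 UMIs, the ratio of Slc2a4 at P1 was -0.0038, while those at E16.5 and P5 were -0.39 and -0.44. Pfkm was lower in 4n CMs too, with -0.39 (-0.51 to -0.28), -0.12 (-0.20 to -0.04) and -0.11 (-0.19 to -0.03), and the value at P1 was -0.02 when thinned. For Fbp2 the log2 ratio at P1 was -0.39 (-0.63 to -0.16), and the one at P5 was -0.06 (-0.24 to 0.12). With all CMs used, none of the 10 genes was 2-fold different between 4n and 2n CMs at any age among those with 100 UMIs (8, 9 and 9 genes). Of all genes, 4.64%, 5.23% and 1.87% were called higher and 0.0208%, 0.00% and 0.406% lower in 4n CMs at the 3 ages in turn. Slc2a3, with fewer UMIs, had a log2 ratio of 1.53 (0.42 to 2.78) at P1. The 4 CM markers were also lower in 4n than in 2n CMs. They took 25355 against 31795 CPM at E16.5, 28901 against 31512 at P1 and 30059 against 31849 at P5. Lower ratios in 4n CMs are thus not particular to the genes described. Markers of fibroblasts were 788 CPM in 4n against 132 in 2n CMs at E16.5, 939 against 141 at P1 and 357 against 261 at P5. The part of such differences between libraries in these ratios was not tested beyond the values given.

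Over the 3 ages together, ploidy was tested with age as a block (edgeR's quasi-likelihood test, Benjamini-Hochberg adjustment over 11412 genes, 6 libraries, 2 residual degrees of freedom). None of the 10 genes passed an adjusted p of 0.05, where 1.49% of all genes were called higher and 0.131% lower in 4n CMs. An unadjusted edgeR p under 0.05 was found for 4 of the 10 (Slc2a1, Slc2a4, Hk2 and Pfkm), beside 2289 of all 11412 genes. Slc2a1 was lower at all 3 ages with a log2 ratio of -0.55 (SE 0.096) and an edgeR adjusted p of 0.0548. Its adjusted p was 0.0308 with DESeq2, 0.0412 with RLE factors, 0.0494 with genes of at least 30 UMIs and 0.0168 without P5, and it ranged up to 0.482 over the other fits with the block. Slc2a4 and Pfkm were lower at all 3 ages as well, with log2 ratios of -0.30 (SE 0.074) and -0.25 (SE 0.080) and edgeR adjusted p of 0.111 and 0.167. Over the other fits with the block their adjusted p ran from 0.0798 to 0.556 and from 0.0405 to 0.635, and without P5 that of Pfkm was 0.0405. For Hk2 the log2 ratio was -0.22 (SE 0.083) and the edgeR adjusted p 0.209.

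Cells were next split within a library, which holds age and library fixed, whereas the 3 pooled litters cannot be told apart. For these splits no ratios over all genes are given. The counts of libraries therefore have no background to be read against. CMs with at least 1 UMI of 12 markers of cell division were set against CMs without. In 2n CMs they were 34.6%, 7.62% and 24.2% at E16.5, P1 and P5, and in 4n CMs 69.7%, 23.0% and 60.2%. Pfkp was higher in the CMs with division markers in 4 of the 6 libraries, with log2 ratios of 0.22 (0.08 to 0.37) in E16.5-4n, 0.44 (0.16 to 0.71) in P1-2n, 0.27 (0.07 to 0.46) in P1-4n and 0.65 (0.46 to 0.85) in P5-4n. In P5-4n the level was 70.2 (65.5 to 75.2) CPM in 2200 CMs with and 44.6 CPM in 1454 CMs without the markers, which had a median of 4838 and 4388.5 UMIs per CM. The other 2 libraries had ratios of -0.05 (-0.15 to 0.06) in E16.5-2n and 0.03 (-0.17 to 0.22) in P5-2n.

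The other phosphofructokinases did not follow Pfkp. In P5-4n, Pfkl was 37.2 (33.8 to 40.9) CPM in CMs with and 48.2 (43.1 to 53.8) in CMs without division markers, a log2 ratio of -0.37 (-0.59 to -0.16). The share of Pfkp in the phosphofructokinase UMIs was 27.2% (25.7 to 28.9) in the former and 18.2% (16.4 to 20.2) in the latter, and that of Pfkl 14.4% (13.2 to 15.7) and 19.7% (17.8 to 21.7). Pfkm was lower in CMs with the markers in 3 libraries, with log2 ratios of -0.20 (-0.35 to -0.05) in E16.5-2n, -0.19 (-0.32 to -0.07) in P1-4n and -0.14 (-0.26 to -0.03) in P5-2n. Hk2 was lower in 3 libraries as well, with -0.30 (-0.49 to -0.10) in E16.5-4n, -0.56 (-1.01 to -0.15) in P1-2n and -0.26 (-0.47 to -0.05) in P5-2n. Cells of 1 library are not replicates, and cells with more UMIs more often show a marker.

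**Figure D4:**
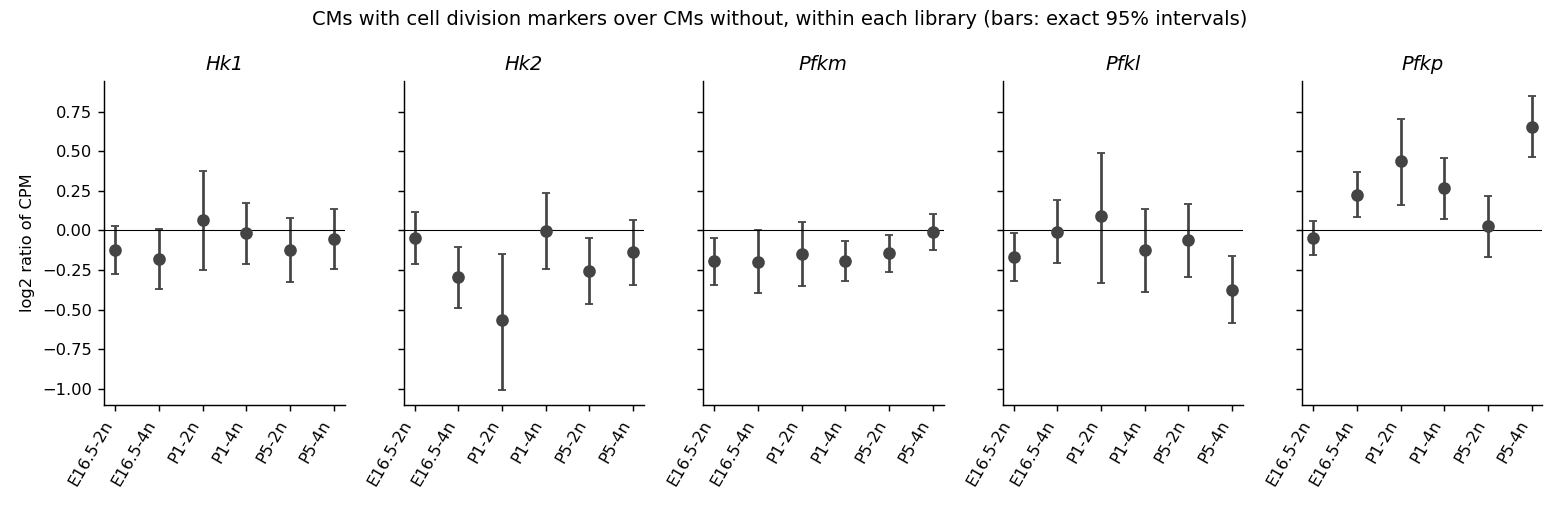
Log2 ratio of CPM between CMs with at least 1 UMI of the division markers and CMs without, within each of the 6 libraries, with exact 95% intervals. Pfkp lies above 0 in 4 libraries by its interval, up to 0.65 in P5-4n, where Pfkl lies at -0.37.

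The share of Myh7, the fetal myosin heavy chain of the mouse ventricle, in the UMIs of Myh6 and Myh7 was also used to split CMs. At E16.5 the median share was 100% and no split could be made. Above the median of P1-2n (21.4%), Pfkm was 126 (118 to 134) CPM, against 149 (141 to 157) at or below it, a log2 ratio of -0.24 (-0.36 to -0.12). In P1-4n the ratio was -0.13 (-0.25 to -0.02) for Pfkm, -0.35 (-0.60 to -0.11) for Pfkl and -0.20 (-0.39 to -0.02) for Pfkp, so that all 3 were lower there. In P1-2n it was -0.08 (-0.34 to 0.18) for Pfkl and -0.11 (-0.30 to 0.08) for Pfkp. At P5 the median was 0%, and Slc2a1 was 7.99 CPM in the 1467 CMs of P5-2n with any Myh7, against 4.21 in the 2869 CMs without, with a median of 4060 and 3681 UMIs per CM. The log2 ratio was 0.93 (0.33 to 1.52) there and 0.08 (-0.67 to 0.82) in P5-4n.

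CMs in which the 30 markers of other cell types took at least 0.5% of the UMIs were 0.755% (E16.5-2n) to 10.8% (P1-4n) of CMs. They had less Pfkp in 4 libraries, with log2 ratios from -0.43 (P1-4n) to -1.48 (E16.5-2n), and less Pfkm and Slc2a4 in 3 libraries each. Whether other CM genes were lower in such CMs as well was not tested. These counts therefore cannot tell whether the lower levels are particular to the genes named. The Pfkp ratio rests on 9 UMIs in such CMs of E16.5-2n (-2.61 to -0.55) and on 5 in P1-2n (-2.99 to -0.14). For Slc2a1 the interval of this ratio included 0 in all 5 libraries where it could be given. Without these CMs, the log2 ratios of P1 to E16.5 in 2n and 4n CMs were -3.24 and -3.47 for Slc2a1 and -1.81 and -1.88 for Pfkp.

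A list of 38 other genes of glucose uptake, glycolysis, lactate transport and glycogen use gives the surroundings. In P1 over E16.5, 1 of 26 with at least 100 UMIs was called higher and 7 lower in 2n CMs, beside 1.98% and 12.1% of all genes, with a median log2 ratio of -0.60 against -0.34 for all genes. In 4n CMs, 1 of 28 was called higher and 7 lower, beside 2.88% and 11.6% of all genes, with a median of -0.42 against -0.30. In P5 over E16.5, 0 were called higher and 6 of 26 lower in 2n CMs, and 0 higher and 5 of 27 lower in 4n CMs, where 16.8% and 21.0% of all genes were called lower, so that the share in 4n CMs is near the background. Of the list, 8 genes were called in both ploidies for P1 or for P5 over E16.5.

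Slc16a3, the lactate exporter MCT4, was 46.1 CPM at E16.5 and 2.43 at P1 in 2n CMs, a log2 ratio of -4.24 (-4.74 to -3.78), and 44.8 and 2.64 CPM in 4n CMs, a log2 ratio of -4.08 (-4.52 to -3.67). Of the tested genes of the list, only Slc16a3 had a lower ratio of P1 to E16.5 than Slc2a1. In 2n and 4n CMs this log2 ratio was -2.43 and -2.43 for Pgam1 (phosphoglycerate mutase), -1.89 and -1.57 for Eno1 (enolase) and -1.92 and -1.21 for Pgk1 (phosphoglycerate kinase). It was -1.53 and -1.44 for Ldha (lactate dehydrogenase) and -1.16 and -1.03 for Pkm (pyruvate kinase). Pgam1, Eno1, Pgk1 and Ldha have near-identical copies in the genome, so that their counts are uncertain. The muscle isoforms of enolase and phosphoglycerate mutase, also on the list, were not called lower. Eno3 was 814, 1060 and 1320 CPM at the 3 ages in 2n and 621, 881 and 1135 in 4n CMs. Pgam2 was 671, 653 and 781 CPM in 2n and 544, 636 and 735 in 4n CMs. The lower Eno1 and Pgam1 thus do not stand for all isoforms of these enzymes. Aldoc, an aldolase, was called lower in both ploidies only at P5, with log2 ratios to E16.5 of -2.05 and -2.30. Txnip, which restrains glucose uptake, was the gene called higher. It was 222, 585 and 295 CPM at the 3 ages in 2n and 197, 570 and 289 CPM in 4n CMs. Thus, Txnip was highest at P1, the age at which Hk2 and Pfkl were lowest. Ldha and Pkm were lowest at P1 too, and a link of Txnip with any of these genes was not tested.

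**Figure D5:**
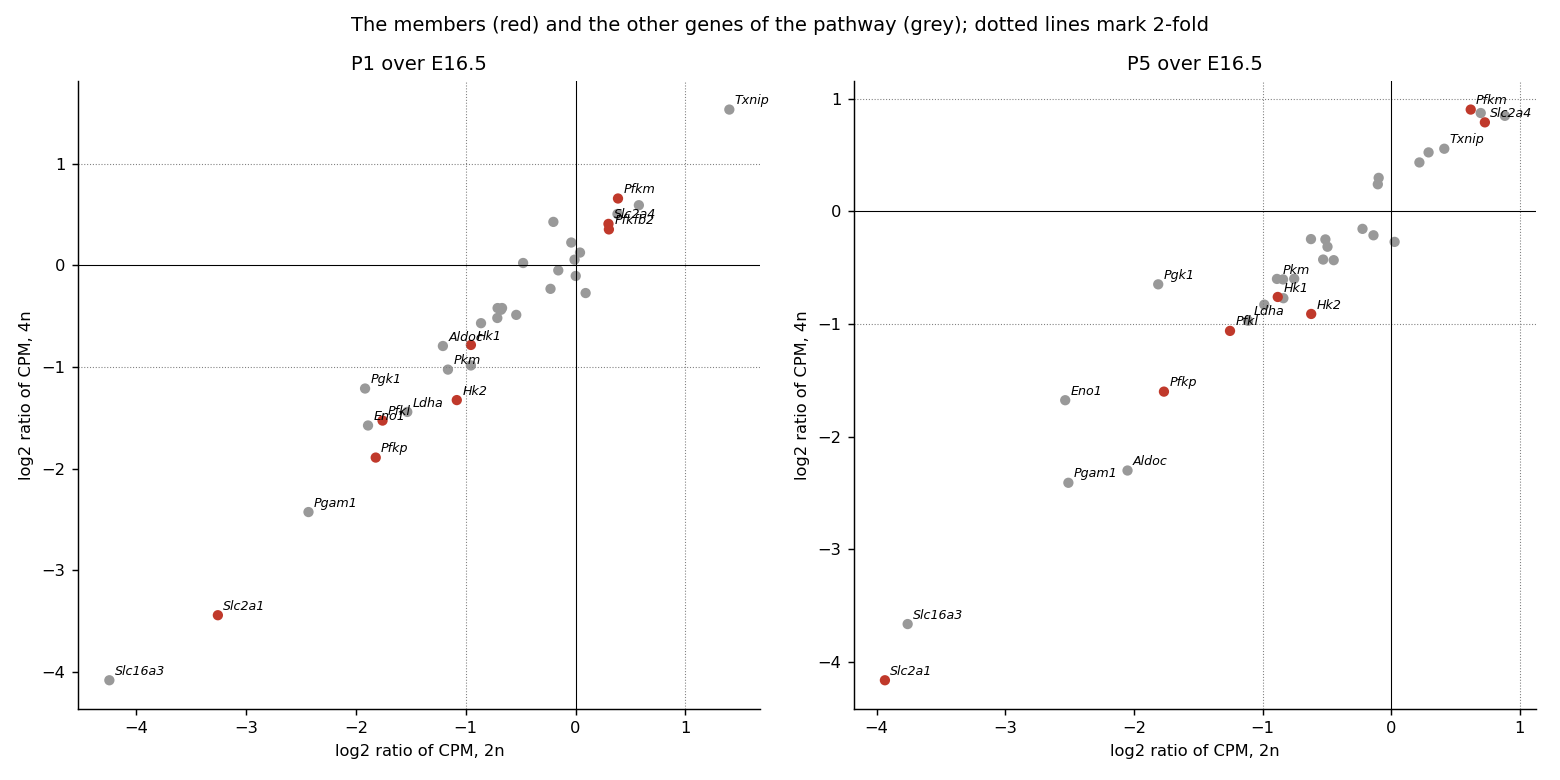
Log2 ratio of CPM over E16.5 in 2n (horizontal axis) and 4n CMs (vertical axis) at P1 and P5 for the 10 genes (red) and the other genes of the pathway (grey) with at least 100 UMIs in both comparisons and a ratio that does not use the floor. Dotted lines mark 2-fold, and Slc2a1 and Slc16a3 lie farthest below 0, at -3.26 and -4.24 in 2n CMs at P1.

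Among 8457 genes with at least 500 UMIs, those with the level pattern most like each gene over the 6 libraries were taken by the root mean square difference of the centred log2(CPM + 1). The nearest to Slc2a1 were Cnn1 (0.13), Gipr (0.16) and Slc16a3 (0.46), of which Cnn1 encodes a calponin of smooth muscle. The nearest to Slc2a4 were Eno3 (0.05), the muscle enolase, Rasl10b (0.06) and Fhl2 (0.06). To Pfkm they were Ampd3 (0.03), Smpd1 and Htra1, and to Fbp2 the lipid droplet gene Plin5 (0.37), Paqr9 and Slc25a34. Pfkl had Arxes1, Ldha (0.07) and Emp2, and Pfkp had C530008M17Rik, Eno1b (0.13) and Thbs4. Hk1 was nearest to Tmem37 (0.03), Ahsa2 and Dbnl, and Hk2 to Ak4 (0.05), a mitochondrial adenylate kinase, Gm11627 and Nasp. Slc2a3 and Pfkfb2 had too few UMIs to be ranked. These distances are over 6 libraries and say nothing on shared control.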

How the data were processed

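The authors demultiplexed NextSeq reads and counted them with Cell Ranger (version not given in the sources used here), which aligned them with STAR to mm10/GRCm38 and a GRCm38.84 transcriptome, and deposited the UMI counts of called cells without normalization. The other deposited lists, the authors' marker comparison of G2/M CMs and a background of gene symbols, were not used. E16.5-4n is labelled E16.5 in its title and 16.6 in its age field, and the title was used.

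UMIs were summed over CMs in Python 3.11.15 with numpy, scipy and pandas and divided by their total. Levels have exact Poisson, shares Clopper-Pearson, and ratios exact binomial intervals at the 95% level. Share changes are conditional odds ratios. No doublets were removed. The ratio and its interval were tested on data simulated with counting error only, which hold no spread between libraries or litters. With 1 library per condition the ratios carry no p-value. After the other results were seen, a test of ploidy was added on UMIs summed over CMs, with age as a block, in genes with at least 100 UMIs and with TMM factors (edgeR 4.0.16, with DESeq2 1.42.0 as an alternative). It takes the effect of ploidy as equal at the 3 ages. It was tried on data simulated with larger log2 ratios than this test found for the 10 genes. That trial does not show its power at the smaller ratios found here. In edgeR the spread of a gene is estimated with help of all genes. Its p therefore does not rest on the 2 residual degrees of freedom alone. The SE is the size of the log2 ratio over the square root of the F statistic. Gene positions are from GENCODE vM21 (GRCm38), promoters from RefSeq (GRCm38.p6). Counts are strand-specific, so overlapping genes on the other strand (Senp1 over Pfkm, Pitrm1 over Pfkp) were kept apart. The genes, lists and alternatives were chosen with earlier results of these data known. Named were the 10 genes, listed pathway genes past 2-fold in both ploidies, and the 3 genes most like each. Eno3 and Pgam2 of the list were given beside Eno1 and Pgam1 as their muscle isoforms.

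Alternatives were other CM filters, scalings, thinning, CMs without markers of other cell types or of division, and a fold of 1.5. A further one, added after the data were seen, is not reported here by its values.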

Additional observations from a re-analysis of the deposited data

Results flagged for a closer look

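The share of Hk2 in the hexokinase UMIs differed in direction between groups whose counting intervals do not overlap, and the differences were not tested, since each condition is 1 library. From E16.5 to P5 its log2 odds ratio was 0.26 (0.09 to 0.43) in 2n and -0.15 (-0.33 to 0.03) in 4n CMs. Between 4n and 2n it was 0.20 (0.03 to 0.36) at E16.5, against -0.22 (-0.42 to -0.01) at P1 and -0.21 (-0.40 to -0.03) at P5. The values at E16.5 and P5 use the same libraries as the change from E16.5 to P5. They are the same contrast read another way and no separate observation. The share of Pfkp in the phosphofructokinase UMIs had a log2 odds ratio between 4n and 2n of 0.20 (0.09 to 0.32) at E16.5 and -0.0877 (-0.24 to 0.06) at P1, and this difference was not tested either.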

How the results depend on the processing

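No log2 ratio past 2-fold and no share change of P5 over E16.5 turned its direction under any alternative run, and 738 of 854 alternative values of the ratios and 86 of 90 of these share changes stayed within the counting intervals. Smaller ratios whose interval lay off 0 did turn in 3 cases. Slc2a1 in 4n over 2n CMs at P5 went from -0.62 to 0.12 when thinned and, without a turn, to -1.15 in CMs without markers of other cell types. Pfkp in 4n over 2n CMs at E16.5 went from -0.12 to 0.01 in CMs without markers of other cell types. Pfkp in P5 over P1 of 4n CMs went from 0.29 to -0.07 in CMs without division markers. From E16.5-2n to P5-2n, 3 genes were called higher with median-of-ratios scaling (7.09% of all genes). At a fold of 1.5, 3 were called higher (6.55%) and 5 lower (40.3%). Without the 50 most abundant genes in the total, 2 were called higher, and no share of all genes is given for that setting. From E16.5-4n to P5-4n, 3 were called higher under each of these settings (7.41% with median of ratios, 5.71% at a fold of 1.5) and 5 lower at a fold of 1.5 (44.5%). From E16.5-4n to P1-4n, 2 were called higher at a fold of 1.5 (6.56%). With a minimum of 30 UMIs, 1 gene (Slc2a3) was called higher in 4n than in 2n CMs at P1 (8.75%). In all, counts of the 10 genes called moved in 10 cases at a fold of 1.5 and in 3 with median of ratios. They moved in 3 in CMs without markers of other cell types and in 1 when thinned. With a minimum of 30 UMIs and without the 50 most abundant genes it was 2 each. Those of this tally not given above went from 0 to 1, beside 1.85% to 16.1% of all genes at a fold of 1.5. No share of all genes is given for CMs without markers of other cell types, for thinning or without the 50 most abundant genes. Counts of the 10 genes under these settings therefore have no background to be read against. The tally leaves out changes by 1 in lower calls against E16.5. Among them, Hk1 was called lower at P1 in both ploidies at a fold of 1.5 (31.4% and 30.4% of all genes). With median of ratios Hk2 at P1 and Pfkl at P5 were no longer past 2-fold (5.57% to 6.74%). With 30 UMIs Slc2a3 was called lower at P1 in 2n and at P5 in both ploidies (15.0% to 23.9%). Thinned to 1000 UMIs per CM, the log2 odds ratio from E16.5-4n to P5-4n was 4.16 for the Slc2a4 share and -0.36 for the Hk2 share. In CMs without division markers it was -0.48 for the Pfkl share and -2.06 for the Pfkp share. The cause of these shifts was not tested, apart from the lower thresholds, which call more genes by construction. Genes under 100 UMIs (Slc2a3, Pfkfb2 and Slc2a1 in P5-4n) are limited by depth. With ploidy tested over the 3 ages, 1 of the 10 genes (Slc2a1) was called with DESeq2, with RLE factors and with a minimum of 30 UMIs. Without P5, 2 (Slc2a1 and Pfkm) were called, where 988 of 10880 genes were called higher and 372 lower. Without E16.5 or without P1, 0 were called. In this test Pfkp turned to 0.022 in CMs without markers of other cell types and Pfkfb2 to 0.074 in CMs without division markers. Of 11412 genes, 170 were called higher and 15 lower in 4n CMs in the main fit. On the same genes it was 314 and 146 with DESeq2, 179 and 19 with RLE factors and 202 and 8 with library totals. With a minimum of 30 UMIs, 190 and 19 of 13040 genes were called. In CMs without markers of other cell types it was 361 and 62 of 9741, and in CMs without division markers 268 and 7 of 10385. Without E16.5 it was 59 and 0 of 10762, and without P1 189 and 13 of 10738. Without the age block no gene was called by edgeR, with 509 genes at an unadjusted p under 0.05.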
